A study of Mus musculus with 27 samples.

Results

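Loss of either STAT5 paralogue was compared with a no-target control in 11 of the 27 RNA-seq libraries of the study, all from IL3-stimulated Ba/F3 cells, an established mouse pro-B line whose growth depends on the cytokine IL3. The STAT5 arm held 6 libraries chosen by their labels, 3 from cells with a short hairpin against STAT5A and 3 from cells with a hairpin against STAT5B, and the control arm held 5 libraries from cells with a no-target hairpin. All 11 came from cells transduced with a lentivirus, kept under puromycin for at least 1 week, starved of IL3 for 6 h, and stimulated with IL3 (10 ng/mL) for 30 min. The labels name 1 hairpin construct per target and describe libraries of one group as biological replicates, without saying whether transductions were separate. The p-values therefore measure the spread between libraries of a group. That spread was estimated over all 27 libraries of the study, not over the 11 alone. The 5 libraries of stimulated wild-type cells, labelled without a hairpin and starved and stimulated in the same way, served as a second reference. The IL3 response of wild-type cells was taken from these against 5 libraries of wild-type cells starved for 6 h and given no IL3. Libraries of stimulated cells with hairpins against LSD1 and HDAC3, 3 each, were set beside some results. The pooled comparison asks what was common to loss of STAT5A and of STAT5B.

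STAT5A and STAT5B are closely related transcription factors encoded by neighbouring genes. When IL3 binds its receptor, the kinase JAK2 phosphorylates them, they pair, enter the nucleus and bind DNA at palindromes of the form TTCNNNGAA. In Ba/F3 cells they contribute to the transcriptional response to IL3, which includes feedback inhibitors such as Cish and the SOCS genes, the survival kinase Pim1 and the cytokine Osm. Because the proteins share most of their sequence and bind the same motif, losing 1 of them can leave the other in place.

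The libraries held 8.53 to 22.6 M counted reads in the STAT5 arm and 6.93 to 17.6 M in the no-target arm. The deposited files also report reads that fell outside genes. No-target replicates 1 and 3 stood apart with 14.03% and 17.4% of such reads, against 8.70% to 11.99% in the other 9 libraries. STAT5A replicate 3 and STAT5B replicate 2 stood apart with 0.177 and 0.184 multi-mapped reads for each read counted, where the others had 0.209 to 0.292. The remaining 4 STAT5 and 3 no-target libraries are called the common class here, a division made from the data and not by the study. Of 22 B lineage markers only 7 passed the filter on low counts. Cd79a (24.2 to 58.5 CPM over the 11 libraries) and Ptprc were present, Ebf1, Blnk, Blk, Vpreb2 and Ms4a1 had no read, and Pax5 reached at most 0.253 CPM. Ebf1, Blnk, Blk, Vpreb2, Ms4a1 and Pax5, all on the B lineage list, were thus at or near 0 in cells labelled pro-B. CPM are counts per M counted reads after scaling with TMM factors (trimmed mean of M values).

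Each hairpin lowered its own target. Stat5a (chr11:100859351-100885169, plus strand, mm10) stood at 26.7, 27.5 and 23.7 CPM in the STAT5A knockdown, at 61.7, 89.8 and 75.0 CPM in the STAT5B knockdown and at 92.01, 70.5, 73.1, 50.5 and 75.3 CPM in the no-target libraries. Stat5b (chr11:100780731-100850724, minus strand) stood at 33.7, 29.3 and 36.0 CPM in the STAT5B knockdown, at 87.9, 89.6 and 87.5 CPM in the STAT5A knockdown and at 134, 121, 126, 103 and 95.3 CPM in the no-target libraries. All 6 STAT5 libraries were therefore below the controls for Stat5b, whereas Stat5a was separated from them in the STAT5A knockdown alone. In edgeR's quasi-likelihood test with Benjamini-Hochberg adjustment over all genes tested, used for every adjusted p here unless DESeq2 is named, Stat5a fell by 1.48 on the log2 scale in the STAT5A knockdown (adjusted p = 0.000254) and Stat5b fell by 1.81 in the STAT5B knockdown (adjusted p = 9.84e-07). The lower Stat5b in the STAT5A knockdown did not pass (log2 fold change -0.39, adjusted p = 0.566). Over the pooled arm the log2 fold change was -0.51 (SE 0.26, adjusted p = 0.282) for Stat5a and -0.93 (SE 0.24, adjusted p = 0.0979) for Stat5b. Stat5a overlaps Stat3 on the other strand, and the library kit does not mark strand.

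The pooled comparison called 17 of 12073 genes tested (0.141%) at an adjusted p under 0.05, 10 higher (0.0828%) and 7 lower (0.058%) in the STAT5 arm. At an unadjusted p under 0.05 there were 2283 genes (18.9%), 929 higher (7.69%) and 1354 lower (11.2%). In 14 of the 17 (0.116% of genes tested), all 6 STAT5 libraries lay on one side of all 5 no-target libraries. Over all genes tested, all 6 lay above in 84 (0.696%) and below in 82 (0.679%). The 17 were chosen by the same comparison, so a lack of overlap describes them and is not further support. The genes that fell were B4galnt4, Serpina3g, Hdac7, Pycr1, Mbnl3, Polr3g and Ampd2, and those that rose were Gadd45a, Anxa3, Xdh, Rdh12, Ift57, Clec4e, Cd14, Fcnb, Stfa1 and A630001G21Rik. The last 3 and Ampd2 were named after their values were seen, to make the set complete. Most adjusted p-values were close to the threshold, and leaving out 1 library left between 1 and 17 of these 17 genes called. The total called ranged from 1 gene, without no-target replicate 1 or without no-target replicate 5, to 67 genes without no-target replicate 2. It was 3 without no-target replicate 4, 8 without no-target replicate 3, 5 without STAT5A replicate 3, without STAT5B replicate 2 or without STAT5B replicate 3, 10 without STAT5B replicate 1, and 35 without STAT5A replicate 1 or 2. DESeq2 called 213 genes, all 17 among them, and a fit to the 11 libraries alone called 0, with 1965 genes at an unadjusted p under 0.05 and a smallest adjusted p of 0.105.

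**Figure D1:**
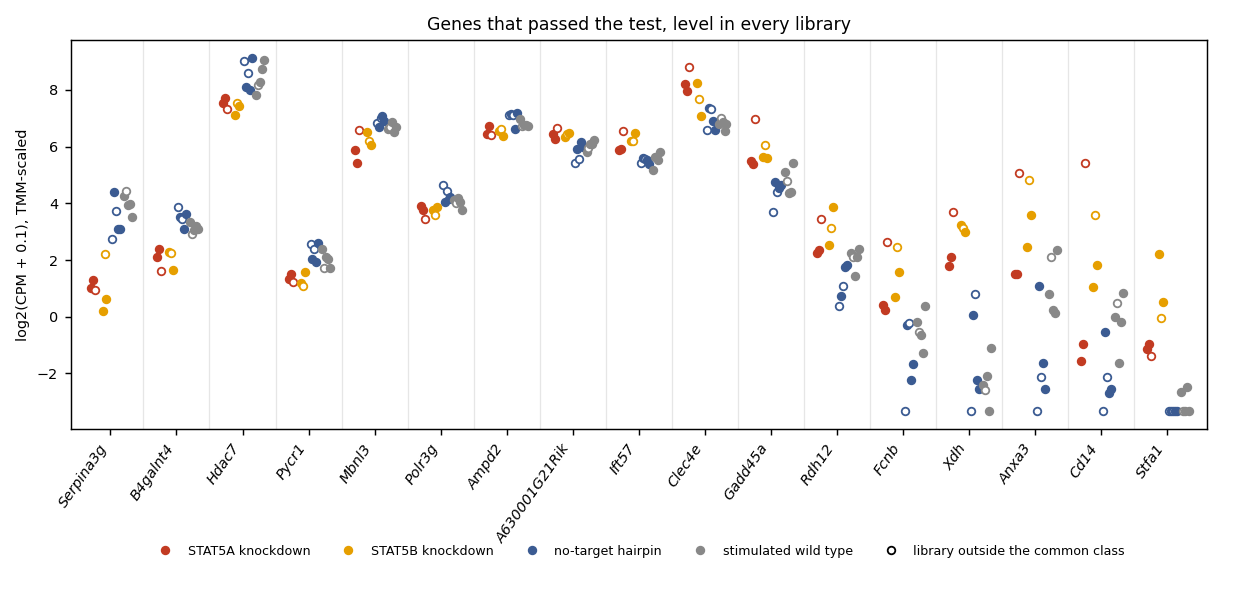
Level of the 17 genes that passed the test in every library of 4 groups, as log2 of CPM plus 0.1 on the vertical axis, with 1 point per library. Open points are libraries outside the common class, and the points at the bottom edge are libraries without a read. B4galnt4 lies at 2.98 to 5.11 CPM in the 6 STAT5 libraries and at 8.43 to 14.6 CPM in the 5 no-target libraries.

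B4galnt4, which encodes an enzyme that adds N-acetylgalactosamine to make the LacdiNAc group of glycoproteins, fell most reliably. Its level was 4.205, 5.11 and 2.98 CPM in the STAT5A knockdown, 4.75, 4.68 and 3.00 CPM in the STAT5B knockdown and 14.6, 11.4, 10.9, 8.43 and 12.2 CPM in the no-target libraries. No STAT5 library reached the lowest control, and both knockdowns covered the same narrow range. The arm mean of 4.12 ± 0.923 CPM (SD, n = 6) was 35.8% of the no-target mean of 11.5 ± 2.23 CPM (SD, n = 5), a log2 fold change of -1.47 (SE 0.16, adjusted p = 1.99e-05). Stimulated wild-type cells, at 7.43 to 10.0 CPM, also lay above all 6 STAT5 libraries, with a log2 fold change of -1.07 (adjusted p = 0.00192) for the arm against them. The 2 knockdowns gave -1.49 and -1.45, and their difference was -0.04 with a 95% confidence interval of -0.50 to 0.42. B4galnt4 did not respond to IL3 in wild-type cells within the precision of the test (log2 fold change -0.15, adjusted p = 0.736). It was called in 20 of 21 alternative analyses, the exception being the fit to the 11 libraries alone (adjusted p = 0.105).

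Of the 11 tested members of a list of B4GALNT and related glycosyltransferases, 1 was called lower, B4galnt4 itself, and 0 higher, beside 0.058% and 0.0828% of all genes tested. The list's median log2 fold change was 0.23 against -0.001 over all genes. All 6 STAT5 libraries were below the controls for 2 of the 11 (18.2%), beside 0.679% of all genes tested. The member other than B4galnt4 was Csgalnact1, which starts chondroitin sulphate chains, at 1.80 to 11.02 CPM against 11.7 to 21.04 CPM. It did not pass the test (log2 fold change -0.96, adjusted p = 0.135).

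Serpina3g, a serine protease inhibitor, was the one gene called lower that IL3 had induced in wild-type cells (log2 fold change 2.14, adjusted p = 0.00558). It stood at 1.90, 2.35 and 1.84 CPM in the STAT5A knockdown, 1.05, 4.51 and 1.44 CPM in the STAT5B knockdown and 6.62, 20.97, 13.2, 8.48 and 8.42 CPM in the no-target libraries. The highest STAT5 library, STAT5B replicate 2, was still below the lowest control, and stimulated wild-type cells were at 11.3 to 21.5 CPM. The log2 fold change was -2.38 (SE 0.46, adjusted p = 0.0394) against no-target and -2.90 (adjusted p = 0.00337) against wild type. Near-identical Serpina3 copies lie beside it, and how reads shared between them were counted is not given in the sources used here, so its counts are uncertain. The call was lost without STAT5A replicate 3, STAT5B replicate 1 or 3, or no-target replicate 1, 3, 4 or 5, with log2 fold changes of -2.53 to -2.23 and adjusted p-values of 0.051 to 0.103.

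Hdac7 encodes a class IIa histone deacetylase. Its level was 186, 207 and 161 CPM in the STAT5A knockdown, 137, 185 and 174 CPM in the STAT5B knockdown and 517, 275, 385, 254 and 555 CPM in the no-target libraries. The STAT5 libraries were close together, and the controls were spread over a wider range without reaching them. Wild-type cells were spread as well, at 223 to 526 CPM stimulated and 236 to 672 CPM without IL3. With LSD1 lost the level was 206.5 to 355 CPM, its lowest library within the STAT5 range. For the STAT5 arm the log2 fold change was -1.18 (SE 0.25, adjusted p = 0.0453) against no-target and -1.02 (adjusted p = 0.0486) against stimulated wild type. Hdac7 overlaps Slc48a1 on the other strand. The call was lost without STAT5A replicate 3, any 1 STAT5B library or no-target replicate 1, 3, 4 or 5 (log2 fold changes -1.31 to -1.03, adjusted p = 0.051 to 0.185).

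Smaller falls were seen for 4 genes of metabolism and RNA. Pycr1, which catalyses the last step of proline synthesis, was at 2.04 to 2.88 CPM against 3.73 to 5.98 CPM, with no overlap (log2 fold change -1.04, SE 0.21, adjusted p = 0.0430). Mbnl3, a muscleblind splicing factor, was at 42.9 to 95.1 CPM against 103 to 135 CPM (log2 fold change -0.76, SE 0.15, adjusted p = 0.0428). Polr3g, a subunit of RNA polymerase III, was at 10.9 to 14.7 CPM against 16.5 to 24.7 CPM (log2 fold change -0.59, SE 0.12, adjusted p = 0.0428). Ampd2, an AMP deaminase, was at 82.0 to 104 CPM and overlapped the controls through no-target replicate 4 at 99.1 CPM, while the other controls were at 137 to 145 CPM (log2 fold change -0.53, SE 0.11, adjusted p = 0.0428). None of the 4 passed against stimulated wild type (adjusted p = 0.115 to 0.363). Each lost its call when 1 of 7 or 8 libraries was left out. The calls of Pycr1 and Polr3g were lost without STAT5A replicate 3, any 1 STAT5B library or no-target replicate 1, 3, 4 or 5, with log2 fold changes of -1.13 to -0.96 and -0.63 to -0.51. That of Mbnl3 was lost without STAT5A replicate 1, STAT5B replicate 2 or 3, or no-target replicate 1, 3, 4 or 5 (log2 fold changes -0.79 to -0.71). That of Ampd2 was lost without STAT5A replicate 1 or 3, any 1 STAT5B library, or no-target replicate 1, 3 or 5 (log2 fold changes -0.55 to -0.49).

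The promoters of the called genes were searched for the STAT5 palindrome TTCNNNGAA, which reads the same on both strands, in the 250 bases before each RefSeq start (GRCm38.p6). A window was given for 13 of the 17 called genes. The motif lay in 2 of 7 genes called lower and in 0 of 6 genes called higher, beside 660 of 8999 genes tested that have a window and 7.02% of all 32851 windows. Among the 225 genes that IL3 induced in wild-type cells, 13 of 150 genes with a window held it. The windows of Serpina3g (chr12:104235897-104236146, plus strand), Hdac7 (chr15:97831768-97832017, minus strand), B4galnt4 (chr7:141060728-141060977, plus strand) and Gadd45a (chr6:67037408-67037657, minus strand) are shown because they are the called genes that hold the motif and the fall and the rise with the smallest p. Each is written 5′ to 3′ up to the base before the start, with every match in capitals.
Serpina3g: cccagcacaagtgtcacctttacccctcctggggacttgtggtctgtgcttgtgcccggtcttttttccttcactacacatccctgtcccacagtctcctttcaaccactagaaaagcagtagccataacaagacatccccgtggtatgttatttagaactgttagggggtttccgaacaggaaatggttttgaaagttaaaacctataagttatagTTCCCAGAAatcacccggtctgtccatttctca
Hdac7: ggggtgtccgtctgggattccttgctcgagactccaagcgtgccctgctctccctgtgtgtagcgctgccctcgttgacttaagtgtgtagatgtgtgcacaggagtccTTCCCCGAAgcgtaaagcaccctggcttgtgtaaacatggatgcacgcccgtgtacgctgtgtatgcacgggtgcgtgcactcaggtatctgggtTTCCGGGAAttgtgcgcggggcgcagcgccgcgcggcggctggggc
B4galnt4: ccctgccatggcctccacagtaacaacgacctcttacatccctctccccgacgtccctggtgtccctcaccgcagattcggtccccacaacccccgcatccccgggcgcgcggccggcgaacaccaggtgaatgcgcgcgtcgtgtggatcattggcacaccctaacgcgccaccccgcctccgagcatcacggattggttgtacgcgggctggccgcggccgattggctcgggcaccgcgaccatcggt
Gadd45a: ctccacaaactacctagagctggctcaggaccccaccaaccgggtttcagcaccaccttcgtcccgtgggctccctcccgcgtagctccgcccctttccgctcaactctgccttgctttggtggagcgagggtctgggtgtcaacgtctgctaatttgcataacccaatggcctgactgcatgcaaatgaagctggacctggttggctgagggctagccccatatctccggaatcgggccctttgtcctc
The Serpina3g match begins at -33 and the Hdac7 matches begin at -141 and -46, counted from the start, with -1 the base before it. A further Hdac7 start held 1 match, at -222, while the Hdac7 windows at chr15:97831496-97831745 and chr15:97844503-97844752 held none. A gene with several windows was counted when any of them held the motif, so more bases were searched for it. A match describes these letters and not binding, and the letters were not found in the B4galnt4 and Gadd45a windows.

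Gadd45a, a growth arrest and DNA damage gene, rose in both knockdowns. Its level was 45.0, 41.9 and 124 CPM in the STAT5A knockdown, 49.8, 66.6 and 48.7 CPM in the STAT5B knockdown and 12.7, 26.7, 20.9, 23.4 and 24.6 CPM in the no-target libraries. All 6 STAT5 libraries were above all 5 controls, and STAT5A replicate 3 was far above the other 5. The arm mean was 62.7 ± 31.4 CPM (SD, n = 6) against 21.7 ± 5.42 CPM (SD, n = 5), a log2 fold change of 1.53 (SE 0.26, adjusted p = 0.0220). Against stimulated wild type, at 20.6 to 42.9 CPM, it was 1.11 (adjusted p = 0.0404), and the wild-type range overlapped the arm. The call was lost without no-target replicate 1, 4 or 5 (log2 fold changes 1.39 to 1.59, adjusted p = 0.0505 to 0.0735). In the common class the log2 fold change was 0.89 (adjusted p = 0.896). Gadd45a overlaps E230016M11Rik on the other strand. It was the 1 member called among 28 tested p53 target and growth arrest genes, beside 0.0828% of all genes tested that were called higher. The median log2 fold change of that list was -0.06 (-0.13 to 0.03 over the alternatives).

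Xdh, the enzyme that turns hypoxanthine and xanthine into uric acid, rose from near absence. It was at 3.32, 4.19 and 12.9 CPM in the STAT5A knockdown, 9.20, 8.70 and 7.80 CPM in the STAT5B knockdown and 0, 0.948, 1.65, 0.113 and 0.072 CPM in the no-target libraries. Wild-type cells were at 0 to 0.370 CPM, so every STAT5 library was above both references. The log2 fold change was 3.93 (SE 0.77, adjusted p = 0.0394) against no-target and 5.74 (adjusted p = 0.00192) against wild type. Xdh and B4galnt4 were the only 2 genes called when no-target replicates 1 and 3 and the other libraries with many reads outside genes were left out (adjusted p = 0.0167 and 0.00240). The call of Xdh was lost without STAT5A replicate 3, any 1 STAT5B library or no-target replicate 1, 4 or 5 (log2 fold changes 3.59 to 3.94, adjusted p = 0.0509 to 0.146).

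Rdh12, Ift57 and A630001G21Rik rose with no overlap between the arms. Rdh12, a retinol dehydrogenase, was at 4.68 to 14.4 CPM against 1.22 to 3.46 CPM (log2 fold change 1.78, SE 0.35, adjusted p = 0.0394). Ift57, a component of the intraflagellar transport complex of cilia, was at 58.8 to 92.6 CPM against 41.8 to 48.6 CPM (log2 fold change 0.73, SE 0.13, adjusted p = 0.0390). A630001G21Rik was at 76.9 to 101 CPM against 43.0 to 71.9 CPM (log2 fold change 0.61, SE 0.12, adjusted p = 0.0428). Ift57 also passed against stimulated wild type, where it was at 36.2 to 56.1 CPM (adjusted p = 0.0189, log2 fold change 0.65). The others did not (adjusted p = 0.210 for Rdh12 and 0.150 for A630001G21Rik). The calls of Rdh12 and Ift57 were lost without STAT5A replicate 3, STAT5B replicate 2 or 3, or no-target replicate 1, 3, 4 or 5, with log2 fold changes of 1.55 to 1.97 and 0.66 to 0.75. That of A630001G21Rik was lost without STAT5A replicate 3, any 1 STAT5B library, or no-target replicate 1, 3 or 5 (0.52 to 0.65).

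The other 5 genes called higher are known from myeloid cells. Anxa3, an annexin of neutrophils, was at 2.72, 2.77 and 33.4 CPM in the STAT5A knockdown, 5.39, 28.3 and 12.005 CPM in the STAT5B knockdown and 0, 2.01, 0.127, 0.226 and 0.072 CPM in the no-target libraries. No library overlapped, although no-target replicate 2 came close to the lowest STAT5 libraries. The log2 fold change was 4.95 (SE 0.86, adjusted p = 0.0220). Wild-type cells, at 1.01 to 4.96 CPM, overlapped the arm, and the arm did not pass against them (log2 fold change 2.46, adjusted p = 0.109). Clec4e, which encodes the receptor Mincle, was at 295, 250 and 446 CPM in the STAT5A knockdown, 303, 207 and 134 CPM in the STAT5B knockdown and 95.7 to 163 CPM in the no-target libraries. STAT5B replicate 3 alone lay within the controls (log2 fold change 1.10, SE 0.21, adjusted p = 0.0394), and all 6 lay above wild type (1.28, adjusted p = 0.00538). Cd14, the co-receptor for bacterial lipopolysaccharide, ranged from 0.237 CPM to 42.7 CPM in STAT5A replicate 3, against 0 to 0.592 CPM (log2 fold change 6.00, SE 1.21, adjusted p = 0.0428). STAT5A replicates 1 and 2, at 0.237 and 0.419 CPM, lay within the controls. Fcnb, the lectin ficolin B, was at 1.09 to 6.09 CPM against 0 to 0.760 CPM (log2 fold change 3.18, SE 0.62, adjusted p = 0.0394). In wild-type cells Cd14 was at 0.224 to 1.69 CPM and Fcnb at 0.311 to 1.21 CPM, ranges that overlapped the arm, and neither passed against them (log2 fold changes 3.39 and 2.13, adjusted p = 0.0945 and 0.0636). Stfa1, a stefin that inhibits cysteine proteases, was at 0.355, 0.419 and 0.283 CPM in the STAT5A knockdown, at 4.57, 0.881 and 1.32 CPM in the STAT5B knockdown and had no read in any no-target library (adjusted p = 0.0496). Its arm mean of 1.30 CPM was at least 24.05-fold higher than 0.05425 CPM, the level that 3 counts over the pooled no-target libraries would give. The floor covers counting error only, and Stfa1 has near-identical copies, so its counts are uncertain.

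The calls of these 5 genes depended on single libraries. Anxa3 lost its call without no-target replicate 1, 4 or 5 (log2 fold changes 4.62 to 4.71), and Clec4e without STAT5A replicate 3, STAT5B replicate 1 or no-target replicate 1, 4 or 5 (0.91 to 1.08). Cd14 lost it without STAT5A replicate 3, STAT5B replicate 2 or 3, or no-target replicate 1, 3, 4 or 5 (4.51 to 6.19). Fcnb lost it without STAT5A replicate 3, STAT5B replicate 2 or 3, or no-target replicate 1, 4 or 5 (2.85 to 3.20), and Stfa1 without STAT5A replicate 3 or no-target replicate 1, 3, 4 or 5 (adjusted p = 0.0659 to 0.146). Within the common class the log2 fold change of Anxa3 was 3.08 and that of Cd14 was 2.88.

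Among 34 tested myeloid markers, 3 were called higher (Anxa3, Clec4e and Cd14) and 0 lower, beside 0.0828% and 0.058% of all genes tested. The log2 fold change was positive for 30 of the 34, beside 49.8% of all genes, with a median of 1.36 against -0.001 over all genes. The summed level of the list was 1848 to 4935 CPM in the STAT5 arm, 809 to 1924 CPM in the no-target arm and 1086 to 1541 CPM in stimulated wild type. Single members varied more than the list, as Ngp ranged from 15.8 to 1097 CPM in the STAT5 arm and from 1.24 to 100.5 CPM in the controls, and Mpo from 23.1 to 369 CPM and from 1.24 to 35.6 CPM. Neither passed (adjusted p = 0.159 for Ngp and 0.128 for Mpo). Of the transcription factors on the list, Cebpa had no read in any of the 11 libraries, Spi1 was at 91.3 to 206 CPM against 49.6 to 103 CPM (adjusted p = 0.0979) and Cebpe at 75.2 to 404 CPM against 49.99 to 125 CPM (adjusted p = 0.107). Cebpb was at 26.5 to 201 CPM against 24.3 to 37.1 CPM (adjusted p = 0.132). Irf8 went the other way at a very low level, 0.0839 to 0.550 CPM against 0 to 0.576 CPM (log2 fold change -0.47, adjusted p = 0.691). Fpr1, Fpr2 and Ly6c2 had no read, and Csf1r and Itgam reached at most 0.127 and 0.756 CPM. Of 12 tested mast cell and basophil markers, 0 were called, 9 were positive and the median was 0.90, with a summed level of 628 to 1978 CPM against 564 to 1350 CPM and Kit without a read. The median of the myeloid list was 0.47 in the common class and 1.07 without STAT5A replicate 3. In bulk RNA, more cells of a type and more RNA per cell cannot be told apart, and the part of these markers in the rises was not tested.

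The 17 calls were then set beside the knockdowns taken alone, each compared with the same 5 controls, so that the resulting values are not independent. The STAT5A knockdown alone called 8 genes (0.0663% of genes tested) and the STAT5B knockdown alone called 41 (0.34%). B4galnt4, Gadd45a and Anxa3 were called in each alone (0.0248%). Of the 17, 2 more were called in the STAT5A knockdown alone (Clec4e and Cd14, the latter with 1 of 3 STAT5A libraries above the controls), 5 more in the STAT5B knockdown alone (Xdh, Rdh12, Ift57, Fcnb and Stfa1) and 7 in neither alone. These 7 were Serpina3g, Hdac7, Pycr1, Mbnl3, Polr3g, Ampd2 and A630001G21Rik, which passed with 6 libraries and not with 3.

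**Figure D2:**
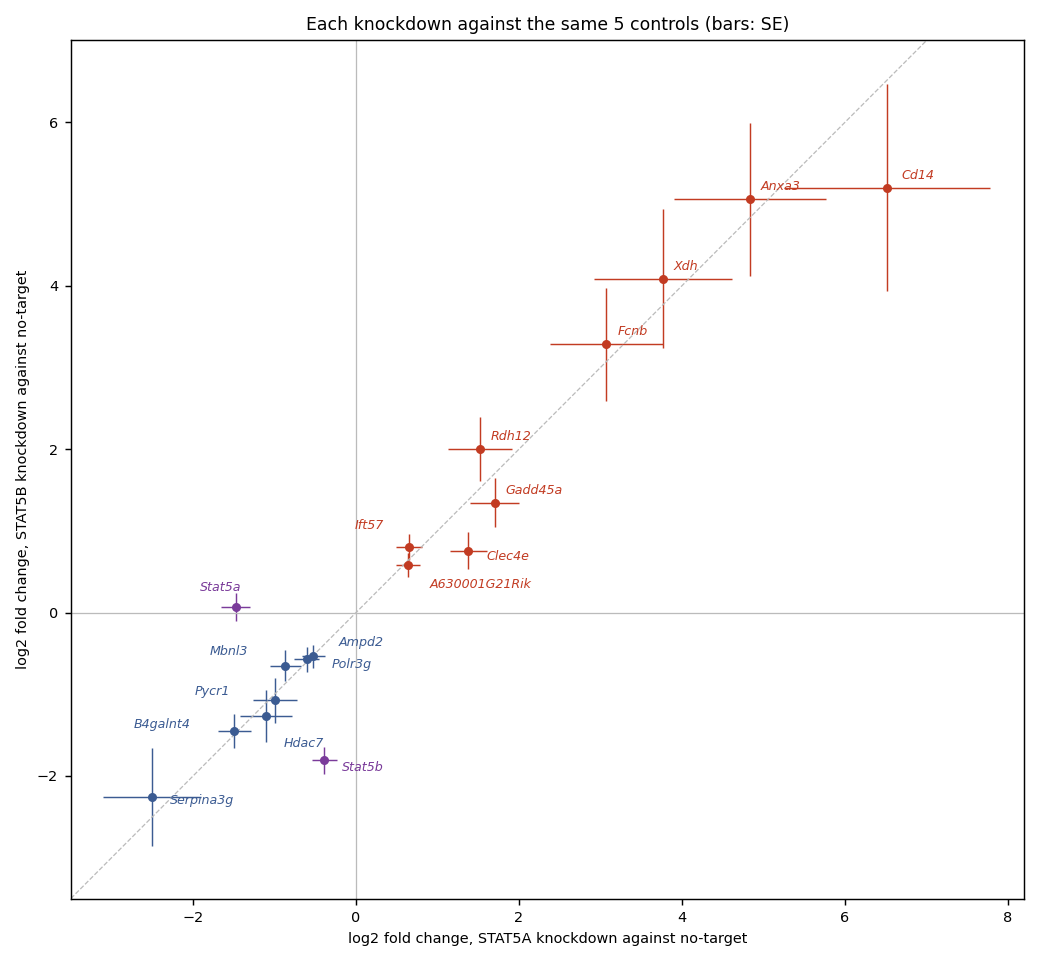
Log2 fold change of the STAT5A knockdown (horizontal axis) and of the STAT5B knockdown (vertical axis) against the same no-target libraries, for 16 of the 17 called genes and for Stat5a and Stat5b, with SE bars and a dashed line of equal change. Stfa1, without a read in the controls, is left out. The called genes were chosen on the mean of both axes and share controls, so a place near the line is not independent evidence, and Stat5a (-1.48, 0.06) and Stat5b (-0.39, -1.81) lie off it.

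The direct test of STAT5A against STAT5B knockdown does not use the mean of the controls, though its spread was estimated over all 27 libraries. It called 3 genes (0.0248%). They were Stat5a (difference -1.54), Stat5b (1.42) and Vps26b, a retromer subunit named after its values were seen, at 119 ± 3.68 CPM (SD, n = 3) with STAT5A lost and 73.8 ± 11.1 CPM (SD, n = 3) with STAT5B lost (difference 0.69, SE 0.11, adjusted p = 0.0110). At an unadjusted p under 0.05 the same test gave 409 genes (3.39%). None of the 17 called genes passed it after adjustment, which does not show equal effects. The difference between the knockdowns was 0.62 for Clec4e (95% confidence interval 0.09 to 1.15) and -2.69 for Stfa1 (-4.20 to -1.18), both outside 0 before adjustment. It was 0.36 for Gadd45a and -0.25 for Serpina3g.

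Beside 0.141% of all genes tested, none of the 14 tested members of a core set of known IL3 and STAT5 target genes passed the test. For 2 of them, Cish and Pim1 (14.3%), all 6 STAT5 libraries were below all 5 controls, beside 0.679% of all genes tested. Cish, the cytokine-inducible SH2 protein that restrains the receptor, was at 302, 333 and 220 CPM in the STAT5A knockdown, 325, 235 and 275 CPM in the STAT5B knockdown and 387, 668, 338, 686 and 516 CPM in the no-target libraries. The highest STAT5 library, at 333 CPM, lay just under the lowest control, and the 2 knockdowns had nearly the same mean (log2 fold change -0.88, SE 0.23, adjusted p = 0.107). IL3 had raised Cish by 4.83 on the log2 scale in wild-type cells, from 16.9 ± 4.42 to 483 ± 80.3 CPM (SD, n = 5 each). It was past the threshold by DESeq2 (log2 fold change -0.89, adjusted p = 0.0217) and with a term for many reads outside genes (-1.11, adjusted p = 0.0472), and not in the other alternatives.

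Pim1, a kinase that supports survival and growth, was at 326, 384 and 210 CPM with STAT5A lost, 279, 201 and 201 CPM with STAT5B lost and 426 to 655 CPM in the no-target libraries. The arms did not overlap (log2 fold change -0.96, SE 0.25, adjusted p = 0.0979, and -0.97, adjusted p = 0.0166, by DESeq2). Stimulated wild-type cells, at 316 to 373 CPM, lay within the range of the STAT5A knockdown, and the arm did not pass against them (log2 fold change -0.34, adjusted p = 0.751). The 2 highest controls, no-target replicates 1 and 3 at 655 and 601 CPM, were those with many reads outside genes, and in the common class the log2 fold change was -0.59 (adjusted p = 1.0). The size of the Pim1 difference therefore depended on which reference was used.

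Socs3, Socs1 and Osm shared a pattern in which STAT5B replicate 3 stood apart. Socs3, a feedback inhibitor of JAK kinases, was at 41.9 to 58.4 CPM in 5 STAT5 libraries, 216 CPM in STAT5B replicate 3 and 76.0 to 514 CPM in the controls (log2 fold change -1.75, adjusted p = 0.131). Socs1, a second such inhibitor, was at 47.9 to 85.5 CPM, 305 CPM and 99.9 to 222 CPM (-0.67, adjusted p = 0.309). Osm, the cytokine oncostatin M, was at 225 to 435 CPM, 1257 CPM and 214 to 2306 CPM (-1.32, adjusted p = 0.166). Without STAT5B replicate 3, Socs1 was lower with a log2 fold change of -1.40 (adjusted p = 0.0134). Against stimulated wild type, Socs3 passed (log2 fold change -2.24, adjusted p = 0.0368) and Osm did not (-1.82, adjusted p = 0.0636).

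**Figure D3:**
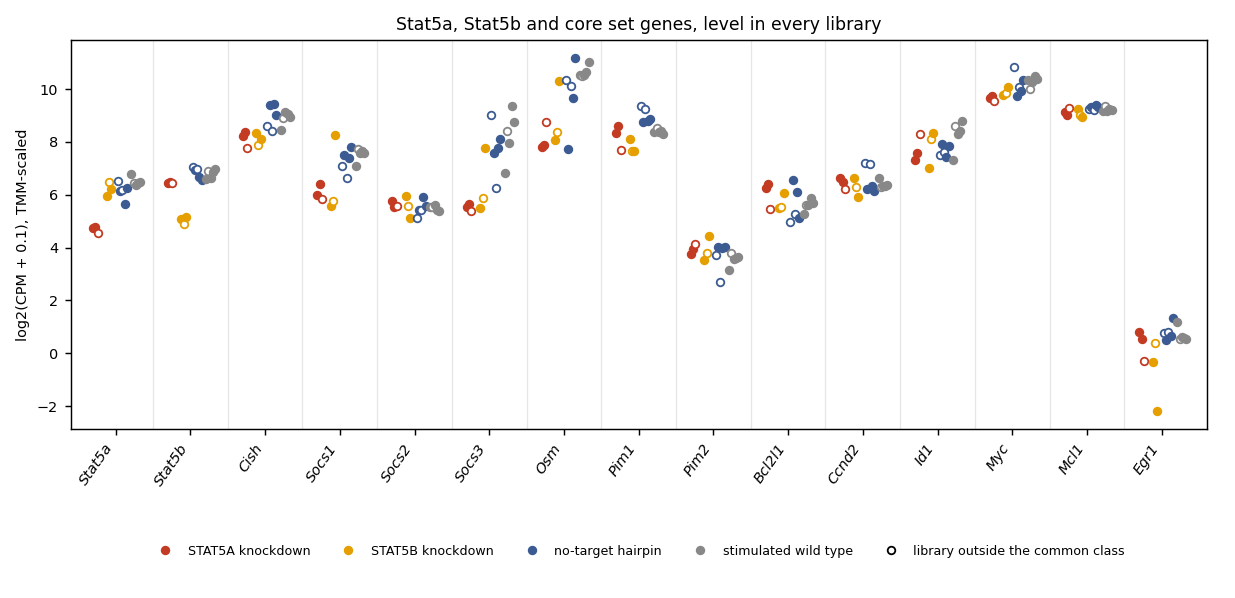
Level of Stat5a, Stat5b and 13 genes of the core set in every library of 4 groups, as log2 of CPM plus 0.1 on the vertical axis, with 1 point per library and open points for libraries outside the common class. Cish and Pim1 are lower in all 6 STAT5 libraries than in all 5 no-target libraries, and 1 STAT5B library stands above the other STAT5 libraries for Socs1, Socs3 and Osm.

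The remaining core genes overlapped between the arms and did not pass. Myc was at 757 to 1088 CPM against 856 to 1823 CPM (adjusted p = 0.252, log2 fold change -0.46), and Mcl1, a survival factor of the BCL2 family, was at 494 to 627 CPM against 589 to 678 CPM (-0.18, adjusted p = 0.296). Egr1 (-0.80), Ccnd2 (-0.29), Bcl2l1 (0.17), Socs2 (0.09), Pim2 (0.20), Id1 (0.20) and Il2ra (0.64) complete the set. The sign of Ccnd2, Socs2, Pim2, Bcl2l1 and Id1 turned in 1 or more of the analyses by library class. In wild-type cells of this study IL3 induced 9 of the 14, and Socs2, Pim2, Bcl2l1, Ccnd2 and Il2ra did not pass (adjusted p = 0.272 to 0.789). That test did not pair same-numbered wild-type libraries, so a small response may have been missed. Socs2 was at 31.8 to 38.8 CPM without IL3 and at 42.0 to 48.6 CPM with it, without overlap. Bcl6 was below the filter on low counts. The median over the 14 genes was -0.37.

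The wider IL3 response was taken from wild-type cells, whose libraries are not in the STAT5 comparison. IL3 raised 225 genes (1.86% of genes tested) and lowered 41 (0.34%) at least 2-fold with an adjusted p under 0.05. The test behind these sets did not pair same-numbered wild-type libraries. Of the 225 induced genes, 162 (72.0%) had a negative log2 fold change in the STAT5 arm, beside 50.2% of all genes tested. Their median was -0.20, and it was -0.20 with STAT5A lost and -0.19 with STAT5B lost. Over the alternative analyses of the pooled arm it ran from -0.25 to -0.09, the last with a replicate block. One member was called lower (Serpina3g) and 0 higher, beside 0.058% and 0.0828% of all genes tested. In 7 of the 225 (3.11%) all 6 STAT5 libraries were below all 5 controls, beside 0.679% of all genes, and in 1 (0.444%) they were above, beside 0.696%. Of the 41 repressed genes, 30 had a positive fold change, the median was 0.22 and none was called.

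The 7 induced genes without overlap were Cish, Pim1, Serpina3g, Vegfa, Ldhal6b, Ptar1 and Nlrp6, the last 4 named after their values were seen. Vegfa, the growth factor of blood vessels, had an even level, at 19.9, 22.1 and 21.6 CPM with STAT5A lost and 23.5, 23.6 and 20.4 CPM with STAT5B lost. The no-target libraries were at 58.2, 36.4, 44.2, 31.8 and 40.4 CPM, so the STAT5 libraries varied far less than the controls (log2 fold change -0.95, SE 0.21, adjusted p = 0.0660). Ldhal6b, a member of the lactate dehydrogenase family, was at 1.64 to 3.55 CPM against 3.68 to 10.0 CPM, and Ptar1 was at 6.61 to 7.699 CPM against 7.704 to 19.5 CPM. Nlrp6 had no read in 3 STAT5 libraries and at most 0.419 CPM in the others, against 0.452 to 3.44 CPM. None of these 4 passed (adjusted p = 0.0660 to 0.149).

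Of 41 tested immediate early genes, 0 were called, beside 0.141% of all genes tested. A negative fold change was found for 31, beside 50.2% of all genes, and the median was -0.25. Bhlhe40, a transcriptional repressor, was called with STAT5B lost and not in the pooled arm (244 ± 104 CPM without target and 62.4 ± 28.0 CPM with STAT5B lost, log2 fold change -1.97, adjusted p = 0.0453, and -1.43 pooled, adjusted p = 0.0971). Its stimulated wild-type level was 112 ± 9.62 CPM. Of 22 tested genes of the IL3 receptor and JAK-STAT pathway, 0 were called, beside the same 0.141%. Their median was -0.07 (-0.12 to 0.003 over the alternatives).

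Lysosomal genes were higher in most members without passing singly. Of 32 tested lysosomal enzymes and membrane proteins, 0 were called, beside 0.141% of all genes tested. An unadjusted p under 0.05 was found for 21 (beside 18.9% of all genes) and a positive fold change for 29 (beside 49.8%). The median was 0.46, with 0.32 for STAT5A lost and 0.62 for STAT5B lost. In 8 of the 32 (25.0%) all 6 STAT5 libraries were above all 5 controls, beside 0.696% of all genes. They were Ctsa, Ctsb, Gla, Man2b1, Tpp1, Dnase2a, Dpp7 and Grn. Gla, the alpha-galactosidase that is deficient in Fabry disease, was at 46.3, 44.9, 81.6, 69.2, 54.7 and 101.8 CPM in the STAT5 libraries and 19.1, 35.8, 35.9, 42.4 and 32.5 CPM in the controls (log2 fold change 1.00, SE 0.23, adjusted p = 0.0660). Man2b1, an alpha-mannosidase, was the most even, at 174 to 204 CPM against 142 to 159 CPM (0.33, adjusted p = 0.151). Dnase2a was at 40.2 to 166 CPM against 34.2 to 39.5 CPM, with wild-type cells at 51.9 to 77.6 CPM (0.18 against them, adjusted p = 0.949). None of the 8 passed against stimulated wild type (adjusted p = 0.105 to 0.949). There Man2b1 was at 134 to 193 CPM and Gla at 32.6 to 45.3 CPM, ranges that overlapped the arm. STAT5B replicate 3 was the highest library for each of the 8 genes. Without it the median of the list was 0.33, and against stimulated wild type it was 0.24.

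Genes for cytosolic ribosomal proteins had a positive fold change in 79 of 79 members, beside 49.8% of all genes tested, with a median of 0.45. Of the 79, 0 were called, beside 0.141% of all genes tested. In none were the arms separated, beside 0.696% of all genes above and 0.679% below. With shares this low, 0 called says little about this list or the shorter ones below. Their summed level was 90779 to 134740 CPM in the STAT5 arm, 50943 to 97225 CPM in the no-target arm and 84495 to 127270 CPM in wild type. The median was 0.05 in the common class, where no-target replicates 1 and 3 are absent, and 0.75 with a replicate block. Ribosome biogenesis genes went the other way in 32 of 43 members, with a median of -0.15 and 0 called. Genes of the unfolded protein response had a median of 0.20 (16 of 21 positive, 0 called), genes of glycolysis and hypoxia -0.21 (16 of 25 negative, 0 called), mitosis genes -0.15 (25 of 35 negative, 0 called) and the BCL2 family 0.17 (6 of 11 positive, 0 called, with a sign that turned over the alternatives, -0.13 to 0.35). In the list of ATF4 and integrated stress response genes 1 of 18 was called lower, Pycr1, beside 0.058% of all genes tested. The median of that list was 0.06 (-0.11 to 0.10 over the alternatives).

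**Figure D4:**
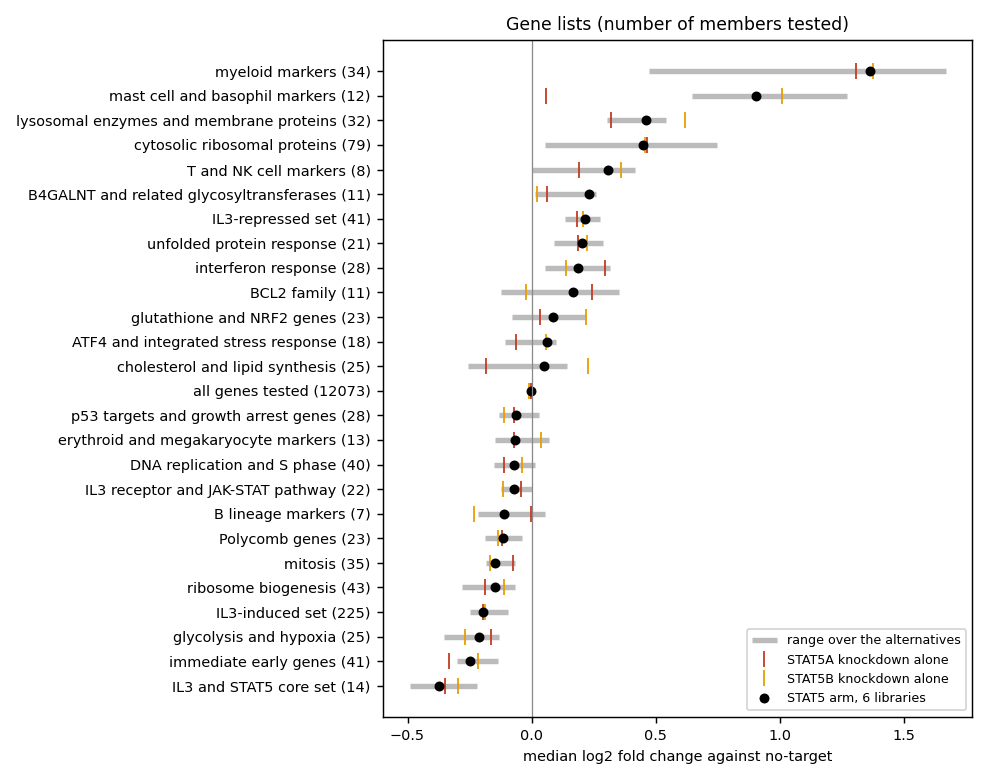
Median log2 fold change against no-target for each gene list, with the number of members tested in brackets. Black points are the pooled STAT5 arm, coloured ticks each knockdown alone, and grey bars the range over the alternative analyses. Myeloid markers lie highest at 1.36 and the IL3 and STAT5 core set lowest at -0.37, and the median of all 12073 genes is -0.001.

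Several changes differed in size when the libraries that stood apart were left out. In the common class, with 4 STAT5 and 3 no-target libraries, the log2 fold change was -1.32 for B4galnt4 (adjusted p = 0.00758), -2.90 for Serpina3g, -1.04 for Hdac7, 4.26 for Xdh, 0.63 for Ift57 and 0.96 for Clec4e. The last 5 did not pass there. For Anxa3, Cd14, Gadd45a, Polr3g and A630001G21Rik the change was smaller than in all libraries, at 3.08, 2.88, 0.89, -0.33 and 0.36. The direction was the same for each of the 16 called genes tested there. Stfa1 was below the filter on low counts in that class.

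**Figure D5:**
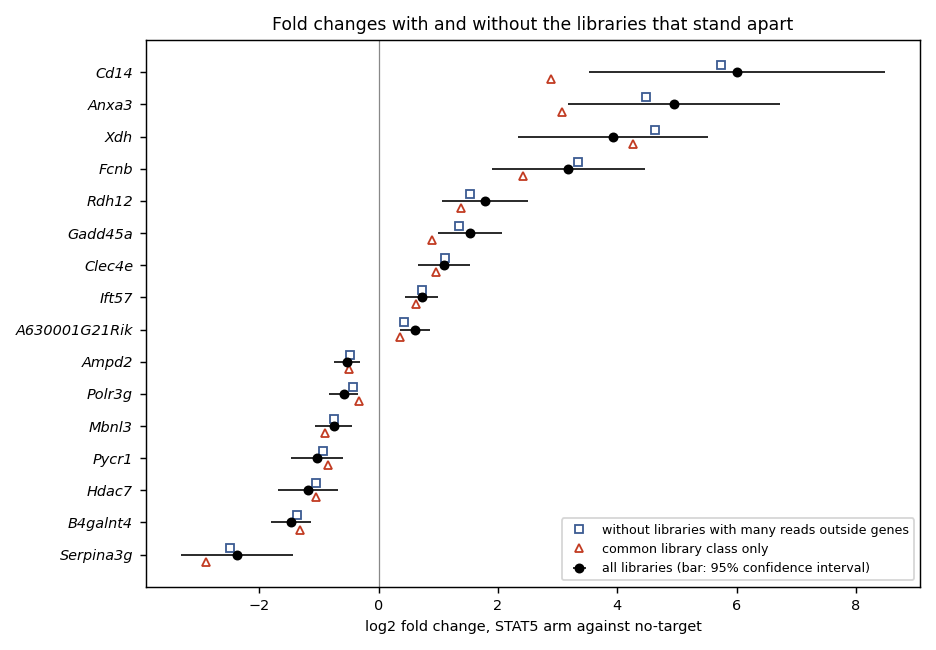
Log2 fold change of the STAT5 arm against no-target on the horizontal axis for 16 of the 17 called genes, in all libraries (black, with 95% confidence intervals), leaving out libraries with many reads outside genes (squares) and in the common class alone (triangles). Stfa1, without a read in the controls, is left out. B4galnt4 keeps a change of -1.32 in the common class, while Anxa3, Cd14 and Gadd45a move to 3.08, 2.88 and 0.89.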

How the data were processed

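PolyA RNA was sequenced by the authors from TruSeq RNA v2 libraries, per the labels' protocols. The deposited files hold raw read counts, 1 row per gene symbol and 1 file for each library. The submitters' processing notes name the mm10 build, TopHat2 2.0.10, Trimmomatic 0.30, DESeq2 1.2 and HTSeq 0.5.4p5, while the counting mode and annotation are not given in the sources used here. The 5 summary rows of each file were dropped from library sizes and tests, and described the libraries only.

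All 27 libraries entered 1 edgeR quasi-likelihood fit (R 4.3.3, edgeR 4.0.16, limma 3.58.1, robust, TMM factors, filterByExpr) with the 6 STAT5 libraries as 1 arm and no covariate. A second fit gave STAT5A and STAT5B means of their own. A gene counted as called when its Benjamini-Hochberg p, adjusted over 12073 genes, was under 0.05. The IL3-induced and IL3-repressed sets came from wild-type cells at that threshold and a change of 2-fold or more, without pairing of libraries. Levels are TMM-scaled CPM. Floors use 3 counts and cover counting error only, since PCR copies were not told apart from molecules.

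The text names Stat5a, Stat5b, B4galnt4, Gadd45a, a core set of 15 IL3 and STAT5 target genes, up to 15 of the largest rises and falls among calls without overlap (mean CPM 5 or more in the higher arm), and up to 4 called members of each list, without predicted models, pseudogenes or small RNAs. Any other gene was named after its values were seen. The members, lists and tests were chosen with earlier results of these data known. Positions come from GENCODE vM21 by symbol and promoters from RefSeq (GRCm38.p6). No 2 replicates were copies of each other (chi-square per degree of freedom 9.9 to 101 over 16 pairs). STAT5A replicates 1 and 2 were the most alike at 9.9, and the other pairs were at 27.2 to 101. How independent these 2 libraries are was not tested. The procedure was tested on simulated data. Alternatives were DESeq2 1.42.0, RLE factors (relative log expression), testing without the filter on low counts, the 11 libraries alone, the average of both knockdown means, a replicate block, a threshold of 0.01, leaving out each library or the libraries that stood apart, and a term for libraries with many reads outside genes.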

Additional observations from a re-analysis of the deposited data

Results flagged for a closer look

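Among the 33 named genes, 66 tests for a library far from the others of its arm gave 11 such libraries, and chance gives about 1 in 20 tests. In the STAT5 arm these were Gadd45a in STAT5A replicate 3 at 124.4 CPM (the others at 41.9 to 66.6), Cd14 in the same library at 42.65 CPM (0.237 to 11.9), Serpina3g in STAT5B replicate 2 at 4.513 CPM (1.05 to 2.35) and Stfa1 in STAT5B replicate 1 at 4.57 CPM (0.283 to 1.32). STAT5B replicate 3 stood apart for 3 IL3 response genes, with Socs1 at 304.7 CPM (47.9 to 85.5), Socs3 at 215.6 CPM (41.9 to 58.4) and Osm at 1257 CPM (225 to 435). In the no-target arm they were Anxa3 and Cd14 in replicate 2, at 2.014 CPM (0 to 0.226) and 0.5924 CPM (0 to 0.127), Il2ra in replicate 3 at 0.7603 CPM (0 to 0.170) and Ampd2 in replicate 4 at 99.14 CPM (137 to 145).

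The STAT5A and STAT5B knockdowns differed from each other in their targets, with a log2 difference of -1.541 for Stat5a and 1.42 for Stat5b, each past the threshold of the direct test between the knockdowns (adjusted p = 0.000222 for both).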

How the results depend on the processing

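The number of genes called moved from 17 to 9 with no filter on low counts, 213 with DESeq2, 0 with the 11 libraries alone, 10 with a replicate block, 1 at a threshold of 0.01, 2 on leaving out libraries with many reads outside genes, 2 in the common class and 3 with a term for many reads outside genes. In the same order from DESeq2 on, the count of genes called higher was 102, 0, 6, 0, 1, 1 and 1, and that of genes called lower was 111, 0, 4, 1, 1, 1 and 2, after 1 with no filter. Called genes without overlap numbered 8 with no filter, then 74, 0, 6, 1, 2, 2 and 3. Genes separating STAT5A from STAT5B loss numbered 12 with DESeq2, 1 with the 11 libraries alone and 6 with that term. Genes called in both knockdowns alone numbered 1 with no filter, 11 with DESeq2, 0 with the 11 libraries alone, 1 with the block, 1 at the threshold of 0.01 and 0 in the common class. Leaving out 1 library at a time gave 1 to 67 genes called, 0 to 44 higher, 1 to 23 lower, 1 to 58 without overlap, 2 to 9 between the knockdowns and 1 to 6 in both alone. The cause of these moves was not tested. The 17 genes all remained called by DESeq2 and with averaged means, 16 with RLE factors, 9 with no filter and 6 with the block.

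Among single genes, the sign turned for 5 core genes that did not pass. On leaving out libraries with many reads outside genes, in the common class and with that term, log2 fold changes were -0.0432, -0.0241 and -0.0427 for Socs2, -0.0380, -0.0483 and -0.0262 for Pim2 and 0.16, 0.21 and 0.17 for Ccnd2. For Bcl2l1 they were -0.12 in the first and -0.13 in the last, and for Id1 -0.0912 in the common class. Of 525 list medians recomputed, 486 stayed within 1 SD of the libraries. The median turned sign over the alternatives for 9 lists, among them the BCL2 family (-0.13 to 0.35), ATF4 and integrated stress response genes (-0.11 to 0.10), p53 targets (-0.13 to 0.03) and IL3 receptor and JAK-STAT genes (-0.12 to 0.003).

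Equal replicate numbers did not pair the STAT5 and no-target libraries in general. Wild-type libraries were not examined in this way. Of 9 same-numbered pairs, 1 correlated above 0.1 in its deviations from the group means (r -0.258 to 0.515). That pair was STAT5A replicate 1 and STAT5B replicate 1, with 16.5 M counted reads each and 0.290 and 0.289 multi-mapped reads for each read counted. Of the STAT5B libraries, replicate 2 correlated best with STAT5A replicate 3, and both had few multi-mapped reads. The part of such likeness between the knockdowns in their common changes was not tested. The block reduced the calls from 17 to 10. Genes with few reads in the controls, such as Stfa1, are limited by depth.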

Other observations

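Cells with hairpins against LSD1 (Kdm1a) and HDAC3, compared with the same 5 no-target libraries and therefore not independent of the STAT5 comparison, were set beside it for some of the genes called. For B4galnt4 the log2 fold change was 0.11 with LSD1 lost and 0.41 with HDAC3 lost (adjusted p = 0.999 and 0.846), at 11.1 to 13.9 CPM and 14.1 to 16.6 CPM in 3 libraries each. For Gadd45a it was 1.07 and -0.96 (adjusted p = 0.205 and 0.700), and for Serpina3g 0.60 and 0.78 (adjusted p = 0.999 and 0.853). Several genes called higher had a positive log2 fold change with LSD1 lost, at 2.26 for Fcnb, 2.42 for Anxa3, 0.60 for Ift57 and 0.92 for Rdh12, none past the threshold (adjusted p = 0.349, 0.547, 0.166 and 0.645). With HDAC3 lost the same genes gave -1.37, -3.27, -0.16 and -0.55. The differences from the STAT5 arm were not tested.

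Several genes had all 6 STAT5 libraries on one side of the controls without passing, and were named after their values were seen. Scd1, a fatty acid desaturase, was at 0.055 to 0.335 CPM against 0.360 to 5.70 CPM (log2 fold change -3.61, adjusted p = 0.0660), with stimulated wild type at 0.269 to 0.792 CPM. Fcgr2b, an inhibitory Fc receptor, was at 99.2 to 435 CPM against 18.2 to 98.8 CPM (1.65, adjusted p = 0.141), with stimulated wild type at 25.6 to 123 CPM. Espl1 and Bub1b, which act in chromosome separation and the spindle checkpoint, were at 81.4 to 104 CPM against 106 to 193 CPM and at 142 to 164 CPM against 166 to 202 CPM (adjusted p = 0.0979 and 0.126). Stimulated wild type overlapped the arm, at 90.8 to 117 CPM for Espl1 and 157 to 177 CPM for Bub1b. The arm did not pass against it (log2 fold changes -0.13 and -0.14, adjusted p = 0.926 and 0.651). The highest Espl1 controls were no-target replicates 1 and 3, at 193 and 169 CPM. Edaradd was the one IL3-repressed gene above the controls in all 6 (2.44% of the 41, beside 0.696% of all genes tested). It was at 3.31 to 4.68 CPM against 1.54 to 2.74 CPM (0.87, adjusted p = 0.0734), and it passed against stimulated wild type (1.02, adjusted p = 0.0151).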
